A study of Mus musculus with 22 samples.

Results

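Knockout lines lacking Pitx1 or Creb3l1 were set against knockout lines lacking Klf5 or Nfatc1, using bulk RNA-seq of mouse tumour cells. The comparison took all 8 libraries of the Pitx1 and Creb3l1 knockouts and all 8 libraries of the Klf5 and Nfatc1 knockouts, 16 of the 22 libraries in the series, and no control library entered it. The pairing of the lines was chosen from expression values of these same libraries, so the difference between the pairs (Pitx1/Creb3l1 and Klf5/Nfatc1 below) is given as a description, and its counts and sizes are not evidence for the pairing. Comparisons that the pairing did not use, between the lines of a pair and between sorted fractions, are given with their tests.

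All lines were CRISPR/Cas9 derivatives of primary cell lines from a mouse tumour whose alleles include Lgr5CreER, p53 fl/fl and Rosa26-YFP+/+, which the control cells carry too. The day 8 sort took living cells positive for mCherry and YFP and split them by surface EPCAM, which gave for each of Pitx1KO, Creb3l1KO, Klf5KO and Nfatc1KO 2 EPCAM+ and 2 EPCAM- libraries, numbered sample 1 and sample 2. The 4 control libraries of day 8 were sorted in the same way and are shown beside the knockouts. The labels leave unnamed the event that day 0 counts from. They also do not state if sample 1 and sample 2 of a line were grown apart or are different clones, so p-values below measure only the spread between these libraries, which may be technical. With 2 lines in each pair, an exact permutation test over lines cannot give a two-sided p below 0.333.

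Pitx1 is a homeodomain transcription factor of hindlimb and pituitary development. Creb3l1 is a basic leucine zipper factor held in the endoplasmic reticulum membrane and released by cleavage. Klf5 is a zinc finger factor of proliferating epithelia, and Nfatc1 is a factor that enters the nucleus when calcineurin is active. In epithelial-mesenchymal transition, tumour cells lose EPCAM, cadherin junctions and keratins and gain mesenchymal genes, and such factors are studied as regulators of the states in between.

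Expression was measured in the authors' normalised units, where every knockout library sums to 20007331 to 20014236 units. A single read was worth 2.02 to 3.30 units in the 16 knockout libraries, which held 6054919 to 9882692 reads in genes, so 3 reads stood for 6.07 to 9.91 units. In EPCAM+ samples 1 and 2 and then EPCAM- samples 1 and 2, Pitx1 RNA had 1473, 1627, 1205 and 1585 units in the Pitx1KO libraries, against 3956 to 5581 units in the 8 Klf5 and Nfatc1 libraries. Creb3l1KO libraries had 4004 to 5224 units of Pitx1. Nfatc1 RNA had 545 to 944 units in the Pitx1 and Creb3l1 libraries, and was at 182 to 249 units in the Nfatc1KO libraries. Klf5 RNA had 1255 to 2117 units in the Pitx1 and Creb3l1 libraries and 1961 to 2247 units in the Klf5KO libraries, so its level does not mark the Klf5 knockout. Creb3l1 had 0 to 8 units in both pairs and checks nothing about its knockout at this depth. Epcam followed the sort, with 90 to 735 units in the 8 EPCAM- libraries and 3702 to 7320 units in the 8 EPCAM+ libraries (limma, adjusted p = 1.26e-06).

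Krt17, Gata4 and Lrig3, the genes that mark the pairing, were all lower in the Pitx1 and Creb3l1 knockouts. Krt17, a keratin of basal and stressed epithelium (ENSMUSG00000035557, chr11:100256217-100261029 on GRCm38), had 72, 38, 8 and 37 units in the Pitx1KO libraries, and 210, 85, 113 and 52 units in the Creb3l1KO libraries. In the same order of libraries, it had 6100, 2896, 4009 and 3010 units in the Klf5KO libraries, and 7976, 3964, 3490 and 3220 units in the Nfatc1KO libraries. The highest Creb3l1KO library lay below the lowest library of the other pair by more than an order of magnitude. The mean was 76.9 ± 62.8 units in Pitx1/Creb3l1 libraries and 4333 ± 1789 units in Klf5/Nfatc1 libraries (SD, n = 8 each), a 56.4-fold lower level in the Pitx1 and Creb3l1 knockouts.

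Gata4, a zinc finger factor of endoderm and heart (ENSMUSG00000021944, chr14:63198922-63271692), was at 0 in all 8 Pitx1 and Creb3l1 libraries. It had 48, 25, 35 and 17 units in the Klf5KO libraries and 24, 14, 47 and 28 units in the Nfatc1KO libraries. Set against a floor of 3 reads per library, Gata4 was at least 3.99-fold lower in the Pitx1 and Creb3l1 knockouts. Lrig3, a transmembrane regulator of growth factor receptors (ENSMUSG00000020105, chr10:125966168-126015359), had 0 units in 6 of the 8 Pitx1 and Creb3l1 libraries and 3 units in the other 2, both Pitx1KO libraries. It had 75, 32, 45 and 42 units in the Klf5KO libraries and 36, 7, 169 and 50 units in the Nfatc1KO libraries. No ratio is given for Lrig3, because the Pitx1 and Creb3l1 libraries held only 2 Lrig3 reads in all. In the control libraries of day 8 the levels were 2175 to 4365 units for Krt17, 26 to 63 units for Gata4 and 29 to 381 units for Lrig3. These ranges overlap those of the Klf5 and Nfatc1 knockouts for all 3 genes and lie wholly above those of the Pitx1 and Creb3l1 knockouts. In bulk libraries, fewer cells with a gene's RNA and less RNA per cell cannot be told apart.

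**Figure D1:**
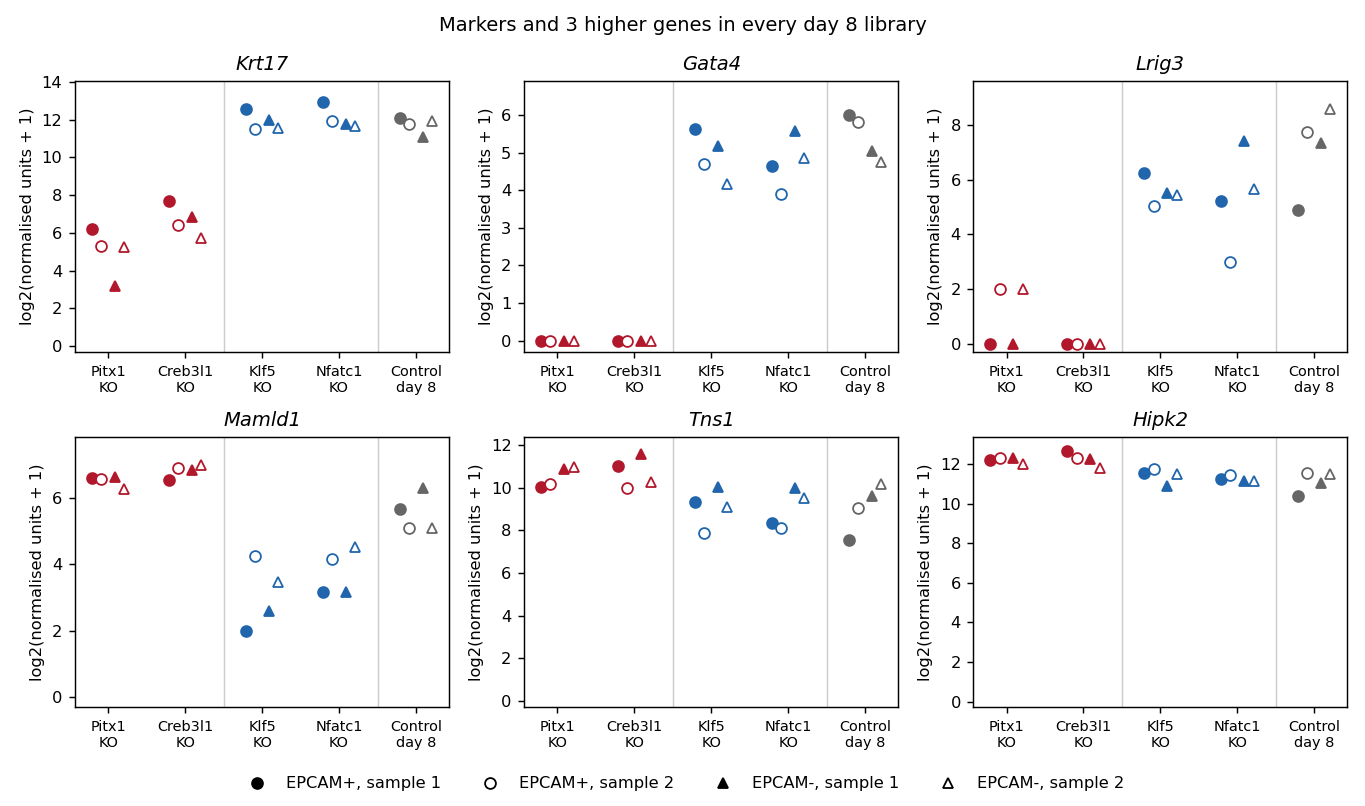
Level of 6 genes in every day 8 library, as log2(normalised units + 1), with the lines along the horizontal axis, circles for EPCAM+ and triangles for EPCAM-, filled for sample 1 and open for sample 2. Krt17, Gata4 and Lrig3 sit below all Klf5 and Nfatc1 libraries in all 8 Pitx1 and Creb3l1 libraries, and Mamld1 and Hipk2 sit above them.

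Promoter windows from the RefSeq table (GRCm38.p6) are shown for the marker Lrig3 and for Crmp1 and the keratin Krt7, genes whose low level in the Pitx1 and Creb3l1 knockouts sets the pairs apart, so that sites for the deleted factors can be looked for. Each runs from 250 bases before to 50 after a transcript start on the + strand. Capitals mark the short cores TAATCC (of PITX factors), TGACGT (of CREB-type factors), CACCC (of KLF factors) and GGAAA (of NFAT factors) on either strand, none of which overlap here.
Lrig3, chr10:125965969-125966268: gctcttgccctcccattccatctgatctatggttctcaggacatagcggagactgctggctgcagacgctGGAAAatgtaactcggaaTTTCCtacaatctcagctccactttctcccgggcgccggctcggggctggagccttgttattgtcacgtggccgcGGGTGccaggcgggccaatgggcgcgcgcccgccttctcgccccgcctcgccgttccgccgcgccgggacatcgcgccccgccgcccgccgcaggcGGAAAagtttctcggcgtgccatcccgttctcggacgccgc
Crmp1, chr5:37241808-37242107: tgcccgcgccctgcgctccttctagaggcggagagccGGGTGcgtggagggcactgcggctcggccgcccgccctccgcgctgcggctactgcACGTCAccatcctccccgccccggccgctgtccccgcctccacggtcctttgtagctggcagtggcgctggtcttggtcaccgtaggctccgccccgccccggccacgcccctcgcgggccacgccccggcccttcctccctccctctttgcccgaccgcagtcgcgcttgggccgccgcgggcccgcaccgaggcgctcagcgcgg
Krt7, chr15:101412153-101412452: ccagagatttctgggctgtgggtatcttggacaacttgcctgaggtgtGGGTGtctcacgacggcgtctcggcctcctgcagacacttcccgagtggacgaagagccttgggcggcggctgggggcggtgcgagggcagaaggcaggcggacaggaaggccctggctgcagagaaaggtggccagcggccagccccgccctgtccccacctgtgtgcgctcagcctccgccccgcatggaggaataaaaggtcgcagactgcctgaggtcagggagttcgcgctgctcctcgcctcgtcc
The Lrig3 window held 3 GGAAA cores and 1 CACCC core, the Crmp1 window 1 TGACGT and 1 CACCC core, and the Krt7 window 1 CACCC core. Of the 32851 windows in the table, 7.06% held TAATCC, 7.51% TGACGT, 57.5% CACCC and 61.3% GGAAA. In the 13693 windows of genes tested below, the shares were 5.70%, 11.0%, 62.9% and 58.6% in the same order. In the 167 windows of genes called lower and separated in both fractions (below), they were 5.39%, 9.58%, 62.3% and 53.3%. In the 61 windows of genes called higher and separated, they were 4.92%, 18.0%, 67.2% and 52.5%. Whether these shares differ was not tested. A match describes letters only. Crmp1 has another listed start, whose window held none of the 4 cores.

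Across all genes, the fit of the pairs with fraction and sample number as covariates called 659 of 19045 tested genes higher (3.46%) and 910 lower (4.78%) in the Pitx1 and Creb3l1 knockouts, 8.24% in all, at an adjusted p below 0.05. Most of these differences were small. The median absolute log2 difference was 0.47 among the higher genes and 0.49 among the lower, and 113 higher and 213 lower genes differed by more than 1. Differences of more than 3 occurred in 5 higher and 42 lower genes, and 11 of the lower genes had no read in any of the 8 Pitx1 and Creb3l1 libraries. Within each fraction, all 4 libraries of the Pitx1 and Creb3l1 knockouts lay above all 4 of the other pair for 70 genes (0.368%) and below them for 180 genes (0.945%). Of these, 67 higher and 173 lower genes were also called. Fits within single fractions or samples, each on 8 libraries, gave fewer calls, 27 in EPCAM- and 20 in EPCAM+ cells, 969 in sample 1 and 48 in sample 2, and without sample number as a block 625 genes were called. Leaving out the Klf5KO EPCAM- library of sample 1 gave 881 calls, and leaving out the Nfatc1KO EPCAM+ library of sample 1 gave 927.

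The 15 lower genes with the largest differences among those that separated the pairs in both fractions and averaged at least 50 units in the higher pair include Krt17 and Lrig3, and the others are given here. Crmp1, a cytoplasmic mediator of semaphorin signals, had 0 to 62 units in the Pitx1 and Creb3l1 libraries (median 18.0) and 425 to 996 units in the Klf5 and Nfatc1 libraries (median 567.5), a 29.9-fold lower level. Bmp7, a secreted BMP ligand, had 0 to 26 units (median 3) in the Pitx1 and Creb3l1 libraries and 90 to 364 units (median 152) in the Klf5 and Nfatc1 libraries. Tbx3, a T-box repressor, had 0 to 6 units (median 0) in the Pitx1 and Creb3l1 libraries and 4 to 120 units (median 77) in the Klf5 and Nfatc1 libraries, and the library at 4 units was EPCAM+ sample 2 of Nfatc1KO. Krt7, a keratin of simple epithelia, had 69 to 2140 units (median 391.5) in the Pitx1 and Creb3l1 libraries and 2511 to 14996 units (median 4354.5) in the Klf5 and Nfatc1 libraries. The libraries did not overlap for Krt7, but the Creb3l1KO mean of 1091 units lay well above the Pitx1KO mean of 152 units.

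Of the other lower genes, the adhesion receptor Adgrl2 was 15.4-fold lower, the ubiquitin ligase Hecw1 20.9-fold lower and the diacylglycerol kinase Dgkk 12.9-fold lower. Tnfrsf26, a member of the TNF receptor family, had 3 to 50 units in the Pitx1 and Creb3l1 libraries and 116 to 1060 units in the Klf5 and Nfatc1 libraries. The calcium channel subunit Cacna1c was 11.1-fold lower, with 0 to 16 units in Pitx1/Creb3l1 libraries against 14 to 122 units in Klf5/Nfatc1 libraries, so its pairs overlapped in range when the fractions were pooled. The mechanically gated channel Piezo2 was 7.62-fold lower, the lipid phosphatase Plpp3 7.97-fold lower and the amino acid transporter Slc36a4 4.66-fold lower, with 6 to 146 units in Pitx1/Creb3l1 libraries against 190 to 320 units in Klf5/Nfatc1 libraries. Slfn2, a Schlafen family gene, was 8.49-fold lower. Slc36a4 also differed inside the pair, by -3.08 ± 0.27 (SE) on the log2 scale between Pitx1KO and Creb3l1KO (limma, adjusted p = 5.56e-06). It was not alone: of the 173 called lower genes that separated the pairs, 30 were also called between these 2 lines. The same held for 1 of the 67 higher genes, where 10.6% of all genes were called between the 2 lines.

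The 5 genes most like each marker over the 16 libraries were named by Pearson r on log2 values. They were Prkaa2, Crmp1, Gata4, Commd7 and Iars2 for Krt17, Prkaa2, Emb, Lrig3, Hunk and Pogk for Gata4, and Gata4, Pogk, Hunk, Pex6 and Tbx3 for Lrig3. Prkaa2, the catalytic alpha-2 subunit of AMP-activated kinase, had 3 units in 1 Creb3l1KO library and 0 in the other 7 libraries of the Pitx1 and Creb3l1 knockouts, against 20 to 69 units in the Klf5/Nfatc1 libraries. Its Pearson r with Gata4 was 0.97 and with Krt17 0.95. Emb, an accessory protein of a lactate transporter, was at 0 in all 8 Pitx1/Creb3l1 libraries and had 10 to 72 units in Klf5/Nfatc1 libraries, at least 4.54-fold lower (r = 0.96 with Gata4). Pogk, a gene with a KRAB domain and a transposase-derived domain, had 154 to 291 units in Pitx1/Creb3l1 libraries against 433 to 879 units in Klf5/Nfatc1 libraries (r = 0.95 with Gata4 and 0.95 with Lrig3), and Hunk, a kinase related to AMP-activated kinase, 0 to 3 units in Pitx1/Creb3l1 libraries against 7 to 45 units in Klf5/Nfatc1 libraries (r = 0.95 with Gata4). The 16 libraries share their lines and fractions, and the gap between the pairs enters each of these values.

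**Figure D2:**
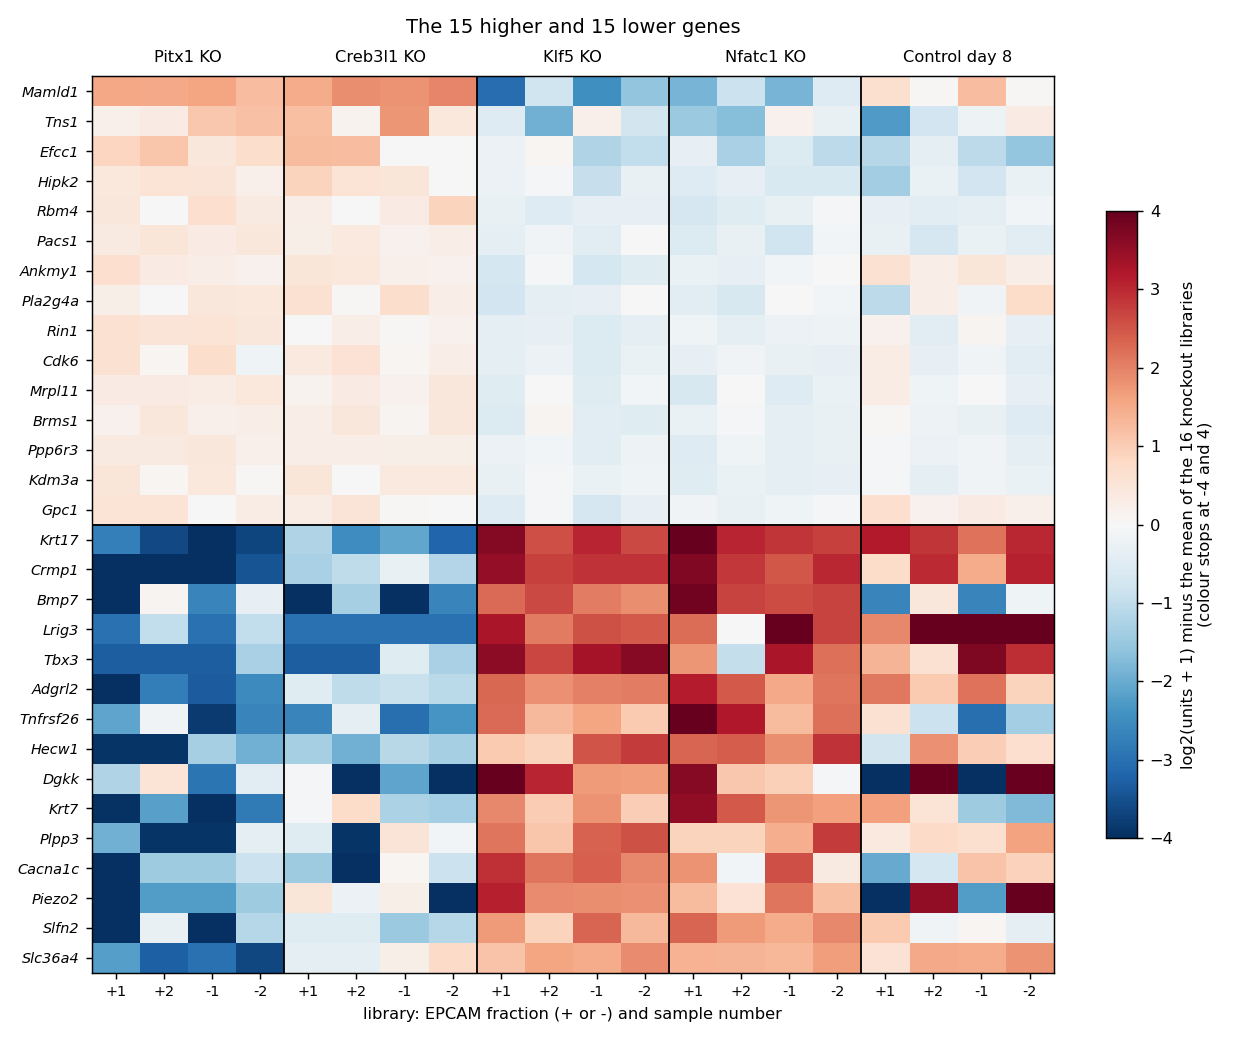
Heat map of the 15 higher and 15 lower genes, as log2(units + 1) minus the gene's mean over the 16 knockout libraries, with the 4 libraries of each line in columns and the day 8 controls at the right. The higher genes are shifted by less than the lower ones, and the controls resemble the Klf5 and Nfatc1 knockouts for Krt17 but not for Bmp7.

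Genes higher in the Pitx1 and Creb3l1 knockouts differed by less. Mamld1, a transcriptional co-activator gene on the X chromosome, had 76 to 126 units (median 97) in the Pitx1 and Creb3l1 libraries and 3 to 22 units (median 9) in the Klf5 and Nfatc1 libraries, 8.93-fold higher. The control libraries held 33 to 77 units, above every Klf5 and Nfatc1 library. Tns1, a focal adhesion protein that binds actin, had 1004 to 3078 units (median 1556) in Pitx1/Creb3l1 libraries against 236 to 1039 units (median 589.5) in Klf5/Nfatc1 libraries, 2.81-fold higher. Its libraries overlapped only across fractions, and EPCAM- libraries were higher in both pairs (EPCAM- minus EPCAM+ log2 difference 0.94, limma adjusted p = 0.0097).

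Hipk2, a nuclear kinase of stress and developmental signals, had 3543 to 6589 units in Pitx1/Creb3l1 libraries against 1882 to 3456 units in Klf5/Nfatc1 libraries and was 1.86-fold higher. Cdk6, a kinase of the G1 phase, had 7778 to 14290 units in Pitx1/Creb3l1 libraries against 5965 to 7997 units in Klf5/Nfatc1 libraries, 1.57-fold higher. The remaining named genes were 1.49-fold to 2.69-fold higher. They were the EF-hand protein gene Efcc1, the histone demethylase Kdm3a, the phospholipase Pla2g4a, the cell surface proteoglycan Gpc1, Ankmy1, and 6 genes of chromosome 19. Those 6 were the splicing regulator Rbm4, the sorting protein gene Pacs1, the RAS effector Rin1, the mitochondrial ribosomal protein gene Mrpl11, Brms1, part of a histone deacetylase complex, and the phosphatase subunit Ppp6r3. Ppp6r3 had 5970 to 7110 units in the Pitx1 and Creb3l1 libraries and 3659 to 4836 units in the Klf5 and Nfatc1 libraries, with a log2 difference of 0.58 ± 0.06 (SE).

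Line by line, the largest count of differing genes lay inside a pair. Pitx1KO and Creb3l1KO, the lines of the same pair, differed in 2013 genes (10.6%), 1250 higher (6.56%) and 763 lower (4.01%) in Pitx1KO (limma, adjusted p below 0.05). Scaling the libraries by median-of-ratios factors moved that split to 992 higher and 934 lower. Klf5KO and Nfatc1KO differed in 104 genes (0.546%), 29 higher (0.152%) and 75 lower (0.394%) in Klf5KO. Without the sample number these counts were 765 for Pitx1KO against Creb3l1KO and 29 for Klf5KO against Nfatc1KO. Across the pairs, Pitx1KO differed from Klf5KO in 1886 genes (9.9%) and from Nfatc1KO in 1781 genes (9.35%). Creb3l1KO differed from Klf5KO in 973 genes (5.11%) and from Nfatc1KO in 1071 genes (5.62%). Only 37 genes were higher (0.194%) and 90 lower (0.473%) in every comparison of a Pitx1 or Creb3l1 line with a Klf5 or Nfatc1 line. The line comparisons share libraries, and whether their counts differ was not tested. Without either sample 1 library of Creb3l1KO the count against Pitx1KO was 1203 or 1223. The count between Klf5KO and Nfatc1KO was 55 without EPCAM+ sample 1, 54 without EPCAM+ sample 2 and 50 without EPCAM- sample 2 of Klf5KO, and 42 without EPCAM- sample 2 of Nfatc1KO.

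**Figure D3:**
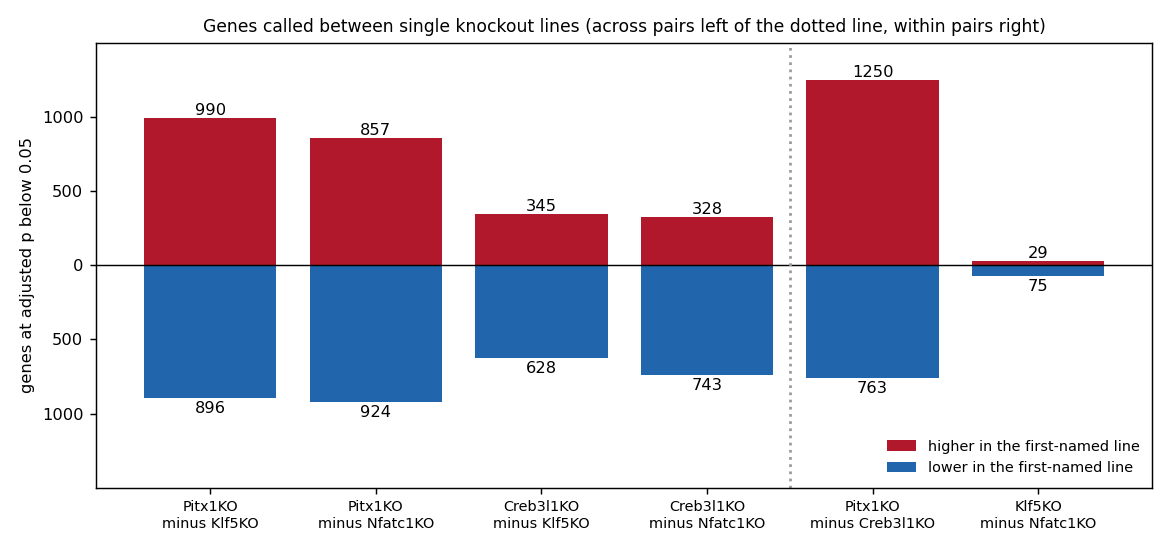
Number of genes called between single lines at an adjusted p below 0.05, with genes higher in the first-named line above 0 and lower ones below. Pitx1KO against Creb3l1KO gave 1250 higher and 763 lower genes, 2013 in all, where the comparisons across the pairs gave 973 to 1886, and Klf5KO against Nfatc1KO gave 29 and 75.

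Pitx1KO lay above Creb3l1KO for several Hox genes and for the mesenchymal cadherin Cdh2. Hoxb8 had 93, 97, 66 and 133 units in Pitx1KO libraries against 0, 0, 3 and 10 units in Creb3l1KO libraries, a log2 difference of 5.21 ± 0.60 (SE; limma, adjusted p = 7.41e-05). Hoxb7 averaged 215 units in Pitx1KO and 7.25 units in Creb3l1KO (adjusted p = 1.26e-05), while the Klf5 and Nfatc1 libraries held 5 to 31 units. In all, 7 of the 25 tested Hox and TALE genes rose and none fell in Pitx1KO, where 6.56% of all genes were higher and 4.01% lower. Cdh2 averaged 1890 units in Pitx1KO and 187.5 units in Creb3l1KO (adjusted p = 2.48e-07). Gata6, a relative of Gata4, averaged 247 units in Pitx1KO and 12.8 units in Creb3l1KO, with an adjusted p of 6.26e-07. Trim44, a TRIM family gene, had 668 to 976 units in Pitx1KO and 0 to 3 units in Creb3l1KO, where 3 of 4 libraries were at 0. It had 110 to 1047 units in the Klf5 and Nfatc1 libraries, so Creb3l1KO stood apart from the other 3 lines. Cers6, a ceramide synthase, had 523 to 2337 units in Pitx1KO and 5 to 75 units in Creb3l1KO (log2 difference 5.89 ± 0.20). The complement regulator Cd59a and the neural gene Brinp3 were also called higher, and Trim44, Cers6 and Cd59a lie on chromosome 2.

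Pitx1KO lay below Creb3l1KO for Mmp9, Mmp12 and Krt14 and for 7 contractile genes. Mmp9, a gelatinase, had 114 to 380 units in Pitx1KO libraries and 4576 to 11051 units in Creb3l1KO libraries, a log2 difference of -4.86 ± 0.79 (SE; limma, adjusted p = 0.0083). Mmp12, a macrophage-type elastase, had 0 to 50 units in Pitx1KO and 170 to 860 units in Creb3l1KO. Krt14, a basal keratin, had 52 to 331 units in Pitx1KO and 2034 to 3795 units in Creb3l1KO (log2 difference -4.71 ± 0.51; adjusted p = 0.0010). The sialyltransferase St8sia2 and the G protein subunit Gng2 were lower in Pitx1KO in every library. Of 15 contractile genes tested, 7 fell and 1 rose in Pitx1KO, among them smooth muscle actin Acta2 with 3 to 60 units in Pitx1KO and 61 to 1058 units in Creb3l1KO (adjusted p = 0.0013). Of 34 collagen and matrix genes, 7 fell and 3 rose in Pitx1KO, and 6 of 20 integrin and adhesion receptor genes fell and none rose. These 3 lists are to be read against the same 6.56% higher and 4.01% lower over all genes, and the share of matrix genes that rose is close to that of all genes. Pitx1 itself fell by 1.62 on the log2 scale in Pitx1KO relative to Creb3l1KO, with an SE of 0.13 (adjusted p = 3.11e-06). Krt17 did not pass the test within the pair, with a difference of -1.70 ± 0.51 (limma, adjusted p = 0.077). Gata4 and Lrig3, at or near 0 in both lines, cannot be compared within the pair.

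Klf5KO and Nfatc1KO differed in few genes. Lmx1a, a homeodomain factor, was at 0 in all 4 Klf5KO libraries and had 11 to 156 units in Nfatc1KO libraries, 27 to 139 units in Pitx1KO libraries and 13 to 142 units in Creb3l1KO libraries. The secreted protease Klk10 had 8 to 36 units in Klf5KO and 292 to 876 units in Nfatc1KO, a log2 difference of -4.49 ± 0.36 (SE; limma, adjusted p = 1.58e-04). Msln, the surface protein mesothelin, had 35 to 193 units in Klf5KO and 1305 to 2073 units in Nfatc1KO, and the ligand Wnt7a had 13 to 175 units in Klf5KO and 211 to 974 units in Nfatc1KO. Gas7, an actin regulator, averaged 64.2 units in Klf5KO and 405 units in Nfatc1KO. In all 5 of these genes, the Klf5KO libraries were the lowest line of the 4 on average. Higher in Klf5KO were Nfatc1 itself, by 1.77 ± 0.13 on the log2 scale (adjusted p = 9.22e-06), the protease Tll1, the neuronal pentraxin receptor Nptxr, and Klf12, a relative of Klf5 with 70 to 101 units in Klf5KO and 17 to 41 units in Nfatc1KO. Of 6 desmosome genes tested, Dsp, Perp and Pkp1 fell in Klf5KO and none rose, against 0.394% lower and 0.152% higher over all genes. Of the same 6 genes, 3 were also called lower and 0 higher in Pitx1KO than in Creb3l1KO. Over all genes, 4.01% were lower and 6.56% higher in that comparison. Dsp, Perp and Pkp1 were picked out after their values were seen.

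Interferon response and cholesterol synthesis genes were called lower in the pair comparison where they were called at all. The gene lists were written with earlier results of these data known, and each count is to be read against 3.46% higher and 4.78% lower over all genes and a median log2 difference of 0.03 over all genes tested. Of 20 interferon response genes tested, 5 were called lower and none higher, with a list median of -0.45. The lines of the first pair also differed, with 5 of the 20 genes called lower and 1 higher in Pitx1KO than in Creb3l1KO. Over all genes, 4.01% were lower and 6.56% higher in that comparison. Ifit1, which binds viral RNA, had 0 to 3 units (median 1.5) in the Pitx1 and Creb3l1 libraries and 12 to 83 units (median 36.5) in the Klf5 and Nfatc1 libraries. Rsad2, an antiviral enzyme, had 0 to 5 units in Pitx1/Creb3l1 libraries against 9 to 37 units in Klf5/Nfatc1 libraries. The day 8 controls held 3 to 51 units of Ifit1 and 0 to 7 units of Rsad2, so for Rsad2 they lay below every Klf5 and Nfatc1 library. Of 24 cholesterol synthesis genes, 6 were called lower and none higher (median -0.24).

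Immediate early and RAS-MAPK feedback genes showed 4 of 17 and 3 of 15 members called lower and none higher. Fos had 447 to 1411 units in the Pitx1 and Creb3l1 libraries and 666 to 5358 units in the Klf5 and Nfatc1 libraries, overlapping, with a log2 difference of -1.29 ± 0.29 (SE). Egr1, on both lists, had 750 to 5558 units in Pitx1/Creb3l1 libraries against 1540 to 12413 units in Klf5/Nfatc1 libraries. The feedback inhibitors Spry1 and Dusp6 had log2 differences of -1.04 ± 0.22 and -0.47 ± 0.11. Among 23 chemokines and cytokines, 3 were called lower, Cxcl1, Cxcl14 and Csf1, and the list median was -0.65. Csf1, the macrophage growth factor, had 2565 to 9116 units in Pitx1/Creb3l1 libraries against 6907 to 14258 units in Klf5/Nfatc1 libraries. Of 14 genes of the NFAT and calcineurin pathway, 4 were called lower, each by less than 0.5 on the log2 scale. They were the calcium entry genes Orai1 and Stim1 and the calcineurin regulators Rcan1 and Rcan3. In this order, their calls were lost in 18, 19, 21 and 14 of 33 alternative fits, such as those without a library or line. Inside the pair, 3 of the 14 genes were called higher and 0 lower in Pitx1KO than in Creb3l1KO, against 6.56% and 4.01% over all genes.

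Junction genes were mixed. Of 28 adherens and tight junction genes, 6 were called lower and 1 higher, and the list median was -0.02. Cdh1, the epithelial cadherin, had 130 to 2339 units in the Pitx1 and Creb3l1 libraries and 214 to 7473 units in the Klf5 and Nfatc1 libraries, and was lower in EPCAM- cells of all lines (limma, adjusted p = 1.67e-08). Cdh2, its mesenchymal relative, had 79 to 3454 units in Pitx1/Creb3l1 libraries against 1905 to 4150 units in Klf5/Nfatc1 libraries. Both cadherins were called lower, but the call was lost in 20 of 33 alternative fits for Cdh2 and in 10 of 33 for Cdh1. The Cdh2 log2 difference ran from -4.13 to -0.84 over those fits, and its level was far lower in Creb3l1KO than in Pitx1KO, as given above. Cldn3, a tight junction claudin, had 0 to 3 units in Pitx1/Creb3l1 libraries against 4 to 18 units in Klf5/Nfatc1 libraries, whereas the day 8 controls had a median of 180.5 units. Keratins apart from Krt17 and Krt7 were not called: Krt8 differed by 0.02 ± 0.08 (SE) on the log2 scale and Krt18 by -0.07 ± 0.09. Krt14 differed by -1.53 ± 1.01 and averaged 151.5 units in Pitx1KO, 3286 units in Creb3l1KO, 1667 units in Klf5KO and 2803 units in Nfatc1KO. Of 13 EMT transcription factors, Twist1 was called higher and Sox9 lower, and these calls were lost in 7 and 15 of 33 alternative fits.

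Among lists with at least 9 tested members, Hox and TALE factors and cell cycle genes had the larger shares called higher. Of 25 Hox and TALE genes, 5 were called higher and none lower (median 0.26). Hoxa9 had 3 to 66 units in the Pitx1 and Creb3l1 libraries and 0 to 6 units in the Klf5 and Nfatc1 libraries, but Pitx1KO, with a mean of 45.2 units, held most of it, and Creb3l1KO had a mean of 8 units. Hoxc4 had 110 to 270 units in Pitx1/Creb3l1 libraries against 77 to 172 units in Klf5/Nfatc1 libraries. Of 38 S phase and mitosis genes, 5 were called higher, namely Mki67, Birc5, Mcm7, Rrm2 and Kif20a, and 2 lower, E2f1 and Ccne1, with a median of 0.15. The calls of Mki67, Birc5 and Mcm7 were lost in 20, 21 and 9 of 33 alternative fits, and that of E2f1 in 4. Mki67, a marker of cycling cells, had 8790 to 17451 units in Pitx1/Creb3l1 libraries against 5643 to 14594 units in Klf5/Nfatc1 libraries, and E2f1 had 638 to 1036 units in Pitx1/Creb3l1 libraries against 909 to 1319 units in Klf5/Nfatc1 libraries. Of 11 GATA and T-box factors, Gata4 and Tbx3 were called lower and Zfpm2, a partner of GATA factors, higher, with 1632 to 2650 units in Pitx1/Creb3l1 libraries against 1199 to 1574 units in Klf5/Nfatc1 libraries. Of the 16 ErbB receptors, ligands and LRIG genes, Lrig3 and the ligand Ereg were called lower and none higher.

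**Figure D4:**
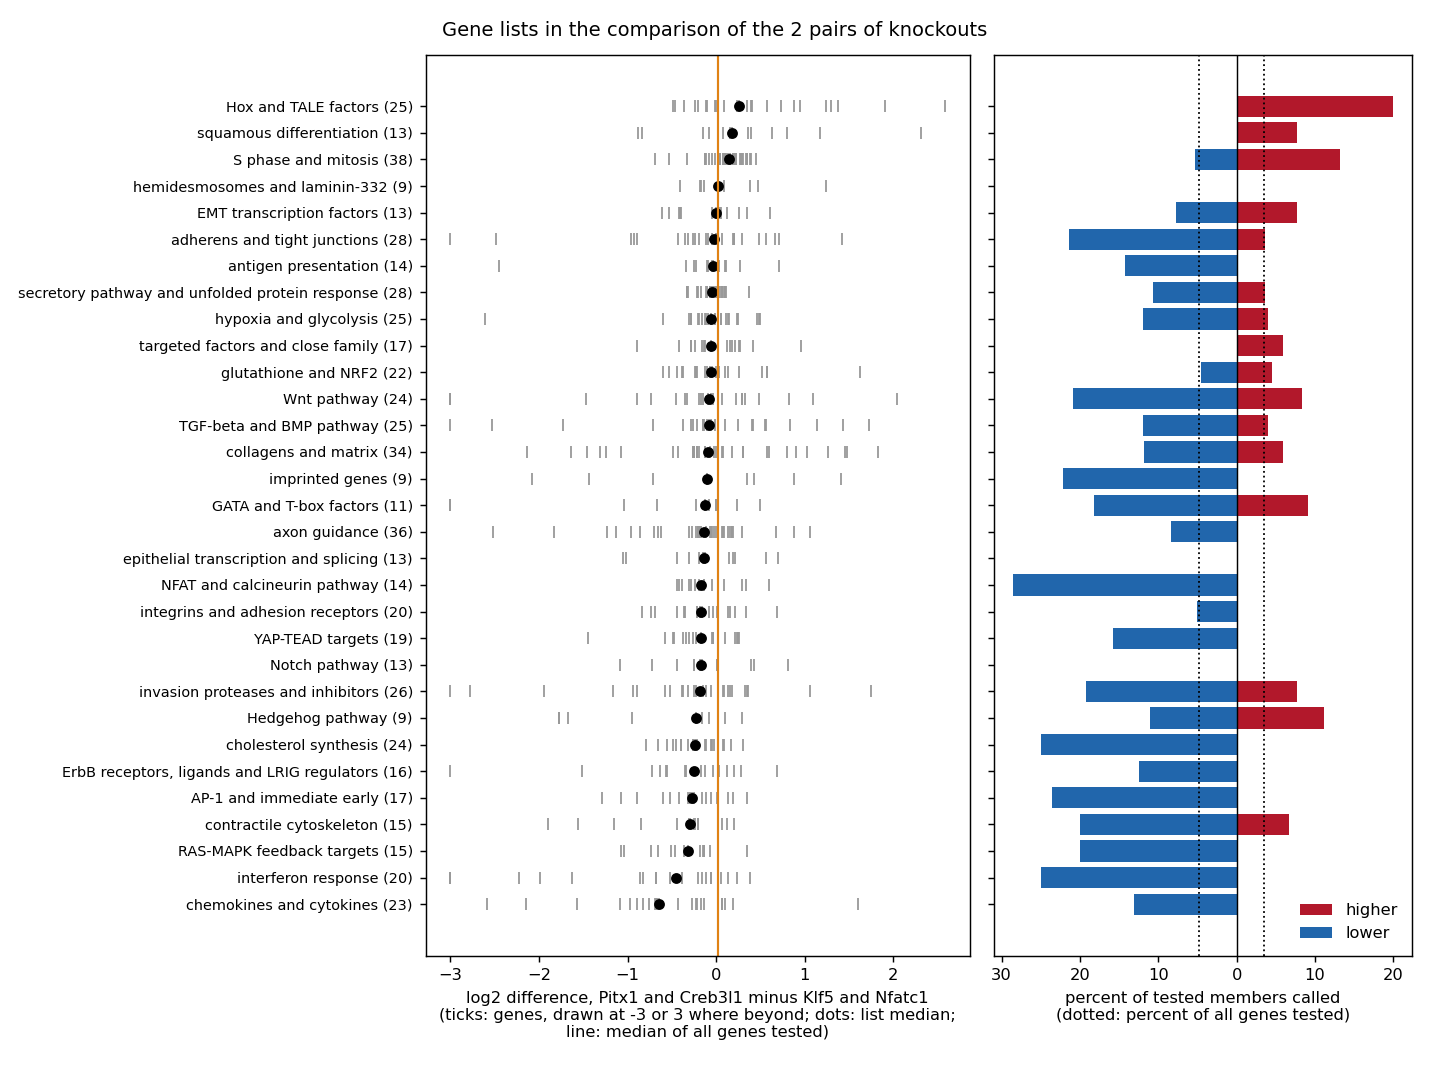
Left, log2 difference between the pairs for each tested member of a gene list (ticks) and the list median (dots), with the median of all genes tested as a line. Right, percent of tested members called higher or lower, with the percent over all genes tested (3.46 and 4.78) as dotted lines, both for lists with at least 9 tested members.

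No member was called of 6 desmosome genes, 9 hemidesmosome and laminin-332 genes, 13 Notch pathway genes or 13 genes of epithelial transcription and splicing. Of 28 secretory pathway and unfolded protein response genes, which include known targets of CREB3 family factors, 1 was called higher and 3 lower, and the chaperone Hspa5 differed by -0.32 ± 0.08 (SE). Among 24 Wnt pathway genes 2 were called higher and 5 lower. The ligand Wnt5a had 0 to 126 units in the Pitx1 and Creb3l1 libraries and 4 to 624 units in the Klf5 and Nfatc1 libraries, and the stem cell receptor Lgr6 had 174 to 1964 units in Pitx1/Creb3l1 libraries against 1160 to 2913 units in Klf5/Nfatc1 libraries. Of 26 proteases and inhibitors, 2 were called higher and 5 lower, among them the urokinase Plau, with 849 to 3422 units in Pitx1/Creb3l1 libraries against 1431 to 12381 units in Klf5/Nfatc1 libraries. The calls of Plau and Lgr6 were lost in 20 and 22 of 33 alternative fits. Nrp1, the co-receptor of semaphorins and VEGF, was among 3 of 36 axon guidance genes called lower, with 47 to 213 units in Pitx1/Creb3l1 libraries against 192 to 470 units in Klf5/Nfatc1 libraries. Of 19 YAP-TEAD targets, 3 were called lower, and Ankrd1 had 292 to 2006 units in Pitx1/Creb3l1 libraries against 1600 to 3200 units in Klf5/Nfatc1 libraries. Of 34 collagen and matrix genes, 2 were called higher and 4 lower, and the collagen crosslinking enzyme Lox had 150 to 2279 units in the Pitx1 and Creb3l1 libraries and 43 to 430 units in the Klf5 and Nfatc1 libraries.

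Of 25 TGF-beta and BMP genes, 1 was called higher and 3 lower, and of 15 contractile genes 1 higher and 3 lower. Of 25 hypoxia and glycolysis genes 1 was called higher and 3 lower, of 22 glutathione and NRF2 genes 1 each way, and of 9 Hedgehog pathway genes 1 each way. Of 14 antigen presentation genes 2 were called lower, B2m and H2-K1, as were 2 of 9 imprinted genes, Igf2r and Plagl1. A single gene was called in each of 3 further lists, Klf9 higher among 17 relatives of the deleted factors, Tgm1 higher among 13 squamous differentiation genes, and Sdc4 lower among 20 integrins and adhesion receptors. The calls of Tgm1 and H2-K1 were lost in 23 and 20 of 33 alternative fits.

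No gene was called in the test of whether the pair difference in EPCAM- cells differs from that in EPCAM+ cells. It called 0 of 19045 genes (0%; limma, smallest adjusted p = 0.99994), and 325 genes had an unadjusted p below 0.05. That is a smaller share than the 0.05 that genes with no difference would give. The absence of calls therefore does not show that this interaction is absent. For Krt17 this interaction was -0.65 ± 0.73 (SE) on the log2 scale, for Gata4 -0.23 ± 0.82 and for Lrig3 -1.13 ± 1.02, so sizeable differences between the fractions could go undetected in these genes. The smallest unadjusted p-values in this fit (limma) were those of the predicted gene Gm43942 (8.76e-04), with 0 to 18 units in all 16 libraries, of Trim44 (0.0019) and of the SRC family kinase Fyn (0.0023). Over the 4 lines, EPCAM- differed from EPCAM+ in 1697 genes (8.91%), and 6 of the 67 higher and 41 of the 173 lower genes that separated the pairs were among them, a share of 8.96% and 23.7%.

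Control libraries of day 8 did not always side with the Klf5 and Nfatc1 knockouts. Among the 67 higher genes that separated the pairs and were called, the control mean on the log2 scale lay nearer to the Klf5 and Nfatc1 knockouts for 51 and nearer to the Pitx1 and Creb3l1 knockouts for 16. Among the 173 lower genes the counts were 108 and 65. For 24 of the higher and 49 of the lower genes the control mean lay above or below both pair means. Crmp1 had 126 and 214 units in the control libraries of sample 1 and 607 and 645 units in those of sample 2. Bmp7 had 3 to 33 units in the controls, within or near the range of the Pitx1 and Creb3l1 knockouts, and Krt7 had 377 to 3955 units, across both. Dgkk was at 0 in both control libraries of sample 1 and reached 680 units in those of sample 2.

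Position along the chromosomes moved with the pair difference. Chromosome 19 held 564 tested genes, of which 138 were called higher (24.5%) and 18 lower (3.19%) in the Pitx1 and Creb3l1 knockouts. Over all genes tested the shares were 3.46% higher and 4.78% lower. Most of the higher genes lay in its proximal part. Of 348 tested genes up to 30 Mb (GRCm38), 131 were called higher (37.6%) and 1 lower (0.287%). Of 216 genes beyond 30 Mb, 7 were called higher (3.24%) and 17 lower (7.87%). Among genes with a mean of at least 200 units, 192 of 207 up to 30 Mb had a positive difference (92.8%), with a median of 0.33, against 46.4% and a median of -0.02 on all other chromosomes. A median of 0.33 corresponds to a 1.25-fold higher level. The median was 0.35 in EPCAM- and 0.31 in EPCAM+ cells. Pitx1KO gave a median of 0.37 and Creb3l1KO of 0.30 relative to the Klf5 and Nfatc1 knockouts.

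Relative to the day 8 controls and to each library's own median, the 207 genes had a median of 0.31 to 0.45 in the 8 Pitx1 and Creb3l1 libraries, against -0.12 to 0.17 in the 8 Klf5 and Nfatc1 libraries and -0.10 to 0.13 in the 4 controls. The 30 Mb boundary and the segments below were chosen after the values were seen. The 6 named genes Rbm4, Pacs1, Rin1, Mrpl11, Brms1 and Ppp6r3 all start within this segment, between 3454928 and 5133158. DNA copy number was not measured, and whether copies of the segment differ between the lines was not tested.

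Other chromosomes were shifted in part, with medians again over genes with a mean of at least 200 units. Shares called are to be read against 3.46% higher and 4.78% lower over all genes. Chromosome 6 had 99 of 1067 tested genes called higher (9.28%) and 25 lower (2.34%), with a median of 0.11. Between 20 and 150 Mb, relative to the controls and each library's own median, Pitx1KO libraries stood at 0.01 to 0.22. Creb3l1KO libraries stood at 0.13 to 0.18, the Klf5 and Nfatc1 libraries at -0.03 to 0.03 and the controls at -0.05 to 0.05. The Pitx1KO range overlapped the last 2 ranges, and the Creb3l1KO range did not. Chromosome 12 had 53 of 604 called higher (8.77%) and 7 lower (1.16%). On chromosome 12 the median was 0.27 for Pitx1KO and 0.06 for Creb3l1KO relative to the other pair. Chromosome 2 had 18 of 1494 called higher and 183 lower (median -0.14), but not along its whole length. In the 4 windows of 10 Mb with at least 20 such genes between 60 and 110 Mb, the median pair difference was 0.16 to 0.36. There the median was 0.41 to 0.92 for Pitx1KO and -0.17 to -0.12 for Creb3l1KO relative to the other pair. Chromosome 14 was lower between 20 and 50 Mb, where the libraries stood at -0.04 to 0.07 in the Pitx1 and Creb3l1 knockouts, 0.12 to 0.34 in the Klf5 and Nfatc1 knockouts and -0.03 to 0.04 in the controls, so there the Klf5 and Nfatc1 knockouts stood apart from the controls. Chromosome 13 as a whole had 32 of 683 tested genes called higher (4.69%) and 64 lower (9.37%), with a median of -0.09. Relative to the other pair, its median was -0.25 for Pitx1KO and 0.08 for Creb3l1KO. The window between 20 and 30 Mb went the other way and held 26 of its higher calls. There the median pair difference was 0.44, with -0.47 to 0.14 in the Pitx1 and Creb3l1 libraries, -0.99 to 0.12 in the Klf5 and Nfatc1 libraries and -0.46 to 0.36 in the controls. These ranges overlap.

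**Figure D5:**
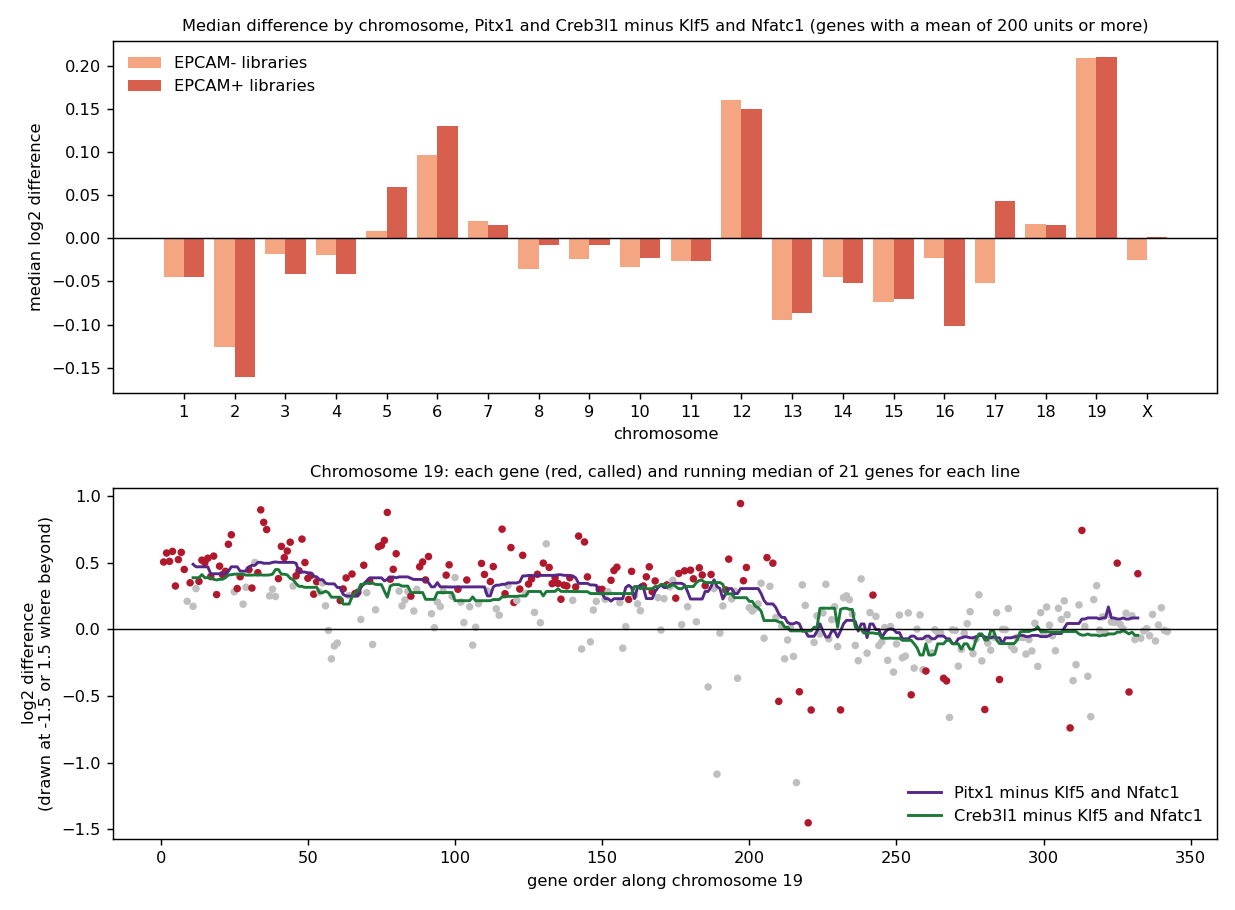
Top, median log2 difference between the pairs by chromosome, for genes with a mean of at least 200 units, in EPCAM- and EPCAM+ libraries. Bottom, the difference for each such gene of chromosome 19 in gene order, with running medians of 21 genes for Pitx1KO and Creb3l1KO against the Klf5 and Nfatc1 knockouts; both lines run above 0 over roughly the first 200 genes and near 0 after them.

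Immune, endothelial, melanocyte, muscle and neural markers were low in both pairs, and fibroblast markers were not. The summed level of 6 immune markers was 42 to 111 units in the Pitx1 and Creb3l1 libraries and 44 to 74 units in the Klf5 and Nfatc1 libraries, with Adgre1 and Cd3e at 0 in all 16. Endothelial markers summed to 85 to 431 units in Pitx1/Creb3l1 libraries against 65 to 232 units in Klf5/Nfatc1 libraries, melanocyte markers to 58 to 236 units in Pitx1/Creb3l1 libraries against 67 to 149 units in Klf5/Nfatc1 libraries with Tyr and Dct at 0 in all 16, and muscle markers to 0 to 10 units in Pitx1/Creb3l1 libraries against 0 to 14 units in Klf5/Nfatc1 libraries. Neural markers summed to 5 to 40 units in Pitx1/Creb3l1 libraries against 17 to 42 units in Klf5/Nfatc1 libraries. The 7 fibroblast markers summed to 289 to 5007 units in the Pitx1 and Creb3l1 libraries and 160 to 3820 units in the Klf5 and Nfatc1 libraries, with Lum at 0 in all 16. All 5 tested had a positive difference (0.43 to 1.26 on the log2 scale, median 1.01). Of these, Pdgfra was called higher, with 116 to 398 units in Pitx1/Creb3l1 libraries against 62 to 146 units in Klf5/Nfatc1 libraries. These genes are also those of mesenchymal tumour cells, and the part of other cells in the pair difference was not tested.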

How the data were processed

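RNA of sorted mouse tumour cells was sequenced as paired-end libraries. Per the submitters' processing notes, FastQC, Trimmomatic, STAR, Picard and HTSeq were used with GRCm38 (mm10). The deposited values are a score, namely normalised counts that the authors rounded up to whole numbers, per the values in the file and not a stated method. In the 16 knockout libraries 99.8% to 99.9% of values were whole multiples of 1 read, from which 6054919 to 9882692 reads per library were recovered. The labels' genotype is given in part here. Of 49671 genes, 49412 (99.5%) matched GENCODE M21 by identifier.

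Log2(units + 1) was fitted with limma 3.58.1 in R 4.3.3 over the 16 knockout libraries for 19045 genes with at least 10 units in at least 2 libraries. The pair fit had fraction and sample number as covariates. Single lines were compared in a fit with 1 mean per line and fraction plus sample number, and p-values were Benjamini-Hochberg adjusted over all genes tested, with 0.05 as the threshold. The labels name sample 1 and sample 2 as batches, and same-numbered libraries deviated together: the correlation of deviations was over 0.1 in 27 of 28 pairs of groups (median 0.559, lowest 0.0667). The pair and interaction fits were tested on simulated data, drawn without differences between the lines of a pair or between samples. The simulation therefore cannot show how the fits behave where such differences exist. Folds are ratios of mean units, not log2 values, and where all libraries of a pair were at 0 a floor of 3 reads per library was used. Values on the log2(units + 1) scale understate differences of low genes, and floors cover counting error only.

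The pairing, the gene lists and the tests were chosen with earlier results of these data known. Named genes were the deleted factors, Epcam and the markers, up to 15 called genes in each direction that separated the pairs in both fractions and averaged at least 50 units, up to 4 called members of each list, the largest differences between single lines, and the 5 genes most correlated with each marker. Genes outside this rule (Hoxb7, Cdh2, Gata6, Acta2, Krt8, Krt18, Dsp, Perp, Pkp1 and the list members given only by name) were chosen after their values were seen. Alternatives were another pseudocount, filter or scaling, voom on recovered reads, no replicate block, single fractions and samples, and leaving out each library or line. Day 0 controls entered only the alternative fitted over all 22 libraries. Some genes that this rule names are not reported here.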

Additional observations from a re-analysis of the deposited data

Results flagged for a closer look

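Of 272 groups of 8 libraries examined for a library far from the others, 7 held one whose gap to its neighbour, over the group's range on the log2(units + 1) scale, was above Dixon's value of 0.526; chance flags about 1 in 20 such groups. Bmp7 had 364 units in Nfatc1KO EPCAM+ sample 1, the highest of the Klf5 and Nfatc1 libraries, and Tbx3 had 4 units in Nfatc1KO EPCAM+ sample 2, the lowest. In Pitx1KO EPCAM- sample 1, Orai1 at 91 units and Hoxc4 at 110 units were the lowest of the Pitx1 and Creb3l1 libraries, and Stim1 at 1262 units the highest. Adam19 had 32 units in Pitx1KO EPCAM- sample 2, the highest of the same 8 libraries. Hspa5 had 13788 units in Pitx1KO EPCAM+ sample 1, the lowest of the same 8.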

How the results depend on the processing

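The pair fit called 1569 genes. Without the replicate block it called 625, in EPCAM- libraries only 27, in EPCAM+ libraries only 20, in sample 1 only 969 and in sample 2 only 48. Without the Pitx1 line it called 2573, without the Creb3l1 line 2555, without the Klf5 line 312 and without the Nfatc1 line 679. Leaving out single libraries gave 881 to 1937. Pitx1KO against Creb3l1KO gave 2013 genes, 765 without the replicate block and 1203 to 2146 without single libraries. Klf5KO against Nfatc1KO gave 104 genes, 29 without the replicate block, 57 in a fit over all 22 libraries and 42 to 126 without single libraries. The cause of these changes was not tested. Other pseudocounts, filters, median-of-ratios scaling and voom kept these counts within 1.5 times. The fraction interaction called 0 genes under every alternative run. Of 4624 alternative values for single genes, 3644 kept direction and side of the threshold, 972 no longer passed it, 6 newly passed it and 2 reversed. The reversed values were those of the uncalled Klf5 difference (-0.12 over all 16 libraries), at 0.0294 without the Pitx1 line and 0.0818 without the Klf5 line. Depth limits genes such as Gata4, Lrig3 and Prkaa2, where a single read is worth 2.02 to 3.30 units.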
